A study of Mus musculus with 8 samples.

Results

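The Myc, Max and Mxd network was examined in AtT20 cells with and without the RXR agonist HX630. The network was taken as 9 genes chosen by name, Myc, Mycn, Mycl, Max, Mxd1, Mxd3, Mxd4, Mnt and Mlx. They were chosen with earlier results of these data known. They were read by 11 probes, against 39429 probes and 19751 named genes on the whole array. AtT20 is a line of mouse pituitary tumor cells that secrete ACTH. HX630 is a synthetic compound that activates the retinoid X receptors (RXRs), nuclear receptors that bind DNA as homodimers or as partners of other nuclear receptors. The control group was 4 samples kept for 48 hr in medium with stripped serum and no agonist, and the HX630 group was 4 samples kept for 48 hr in the same medium with 10 μM HX630. Each sample was hybridized to an array of its own, read in the Cy3 channel only.

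The products of these genes are basic helix-loop-helix leucine zipper proteins that bind DNA as dimers. MYC, MYCN and MYCL pair with MAX and activate genes of growth, ribosome production and metabolism through E-boxes, of which CACGTG is the best known. MXD1, MXD3, MXD4 and MNT pair with MAX at the same letters and bring the SIN3 corepressor with its histone deacetylases. MLX is related to MAX and is the partner of the glucose-sensing factors MLXIP (MondoA) and MLXIPL (ChREBP), and it also pairs with some of the MXD proteins and with MNT.

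The binding letters of the network occur in the promoters of some of its own genes. RefSeq promoter windows of 300 bases (250 before the start of the gene and 50 after it, build GRCm38.p6) were at hand for 8 of the 9 genes, all but Myc. The E-box CACGTG, which reads the same on both strands, was found in 4 of these 8 windows, those of Max, Mxd4, Mnt and Mlx, and in 7.15% of all 32851 windows of this length. The bases G and C made up 55% to 76.7% of the 8 windows. The shares over all windows given here were not matched for this content. The RXR half-site AGGTCA was found on neither strand of the 8 windows and in 16.3% of all windows. The direct repeat of this half-site with 1 base between the copies, the kind of site that RXR homodimers bind, was found in none of the 8 and in 0.0396% of all. TTTCGCGC, the letters of an E2F site, was found in the window of Mycn alone among the 8 and in 0.323% of all, and it lay on the strand opposite to the gene. Each sequence below is written 5′ to 3′ on the strand of its gene with 21 bases on either side of the match, to show where the network's own letters lie, and the capitals mark the match.

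Max: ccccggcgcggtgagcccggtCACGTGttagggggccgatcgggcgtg
Mxd4: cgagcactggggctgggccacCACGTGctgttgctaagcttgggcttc
Mnt: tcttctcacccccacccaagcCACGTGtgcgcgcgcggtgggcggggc
Mlx: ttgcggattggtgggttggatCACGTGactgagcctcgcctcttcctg
Mycn: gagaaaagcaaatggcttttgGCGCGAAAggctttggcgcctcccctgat

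The Max sequence is chr12:76962225-76962272 on the minus strand, with the E-box beginning 3 bases before the start. The Mxd4 sequence is chr5:34187903-34187950 on the minus strand, and its E-box begins 219 bases before the start. The Mnt sequence is chr11:74830780-74830827 on the plus strand, with the E-box 123 bases before the start. The Mlx sequence is chr11:101087229-101087276 on the plus strand, with the E-box 40 bases before the start. The Mycn sequence is chr12:12941987-12942036 on the minus strand, and the match begins 179 bases before the start. A match describes these letters and not the binding of a factor, which was not measured here.

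Signals are given as the log2 of the processed intensity minus the 75th percentile of the same array, so that 0 stands for the 75th percentile. A difference is the mean of the HX630 arrays minus the mean of the control arrays on this scale. The limma test took in the 28553 probes that stood well above background on 4 or more arrays, which covered 15320 named genes, and p-values were adjusted over all of these probes by the Benjamini-Hochberg method. A gene was called at an adjusted p below 0.01 with a fold change above 1.5. The study's methods name the same numbers, but for a p with no adjustment stated and from another test. Arrays of the same group correlated at 0.9941 to 0.9977 and arrays of different groups at 0.9781 to 0.9838. The control arrays were on 1 slide and the HX630 arrays on the other, so that slide and treatment cannot be told apart. The labels number the samples of a group as replicates but name no separate cultures, and the p-values then measure the spread between these samples, which may be technical. The number of arrays limits the precision, and the smallest p that an exact permutation test of 4 against 4 arrays can give is 0.0286.

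The labelled cell type was checked against fixed markers. Of 8 corticotroph markers, 7 (Pomc, Tbx19, Neurod1, Nr4a1, Pcsk1, Crhr1 and Pitx1) were well above background on all 8 arrays and Avpr1b on none. Their summed level, in units of the 75th percentile, was 314 to 390 on the control arrays and 219 to 229 on the HX630 arrays, carried by Pomc, with a mean log2 signal of 8.03 and 7.57, and Pcsk1. Single markers moved both ways, since Nr4a1 (-3.33) and Pcsk1 (-2.06) were called lower and Neurod1 (0.72) and Crhr1 (1.11) higher. Of 9 markers of other pituitary lineages, Gh, Lhb, Gata2 and Nr5a1 were well above background on all 8 arrays, and Prl, Tshb and Cga on none. Their summed level was 0.75 to 1.01 against 0.71 to 0.82, and Gh (-0.79) was called lower. Of 9 markers of non-endocrine cells on the array, 6 were tested, and Cdh5, Pdgfra and S100b were above background on no array. Their sum was 12.3 to 13.8 on the control arrays and 20.4 to 22.5 on the HX630 arrays, most of it from the keratin gene Krt8, whose mean log2 signal was 3.66 and 4.42. The sum thus followed Krt8, and it does not measure a share of non-endocrine cells. Krt8 (0.76) and Gfap (0.97) were called higher and Pecam1 (-0.59) lower. The part of these shifts in the results below was not tested, and in RNA from whole cultures fewer cells of a type and less RNA per cell cannot be told apart. Over all tested probes, 18.6% were called and 40.1% of the calls were higher with HX630, which became 51.6% with scaling to the median and 68.9% with scaling to spike-in control probes.

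All 11 probes of the network were well above background on all 8 arrays, none was saturated, and all 9 genes were tested. Myc fell and Mycl rose past the fold threshold. Mlx fell, and Mxd3 and Mxd4 rose, by less than 1.5-fold at an adjusted p below 0.01. Mycn, Max, Mxd1 and Mnt did not pass. Thus 2 of 9 genes were called, against 19.5% of all genes tested, with 1 higher against 8.38% of all genes and 1 lower against 11.2%. At an adjusted p below 0.01 and any fold, 5 of 9 passed against 51.2% of all genes, 3 higher against 24% and 2 lower against 27.2%. The 2 groups of arrays did not overlap for 7 of the 9 genes, against 61.5% of all genes. In each of these counts the share of the network lay near that of all genes. The median difference was 0.09 over the 9 genes and -0.03 over all genes, and the median size of a difference was 0.33 against 0.28.

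**Figure D1:**
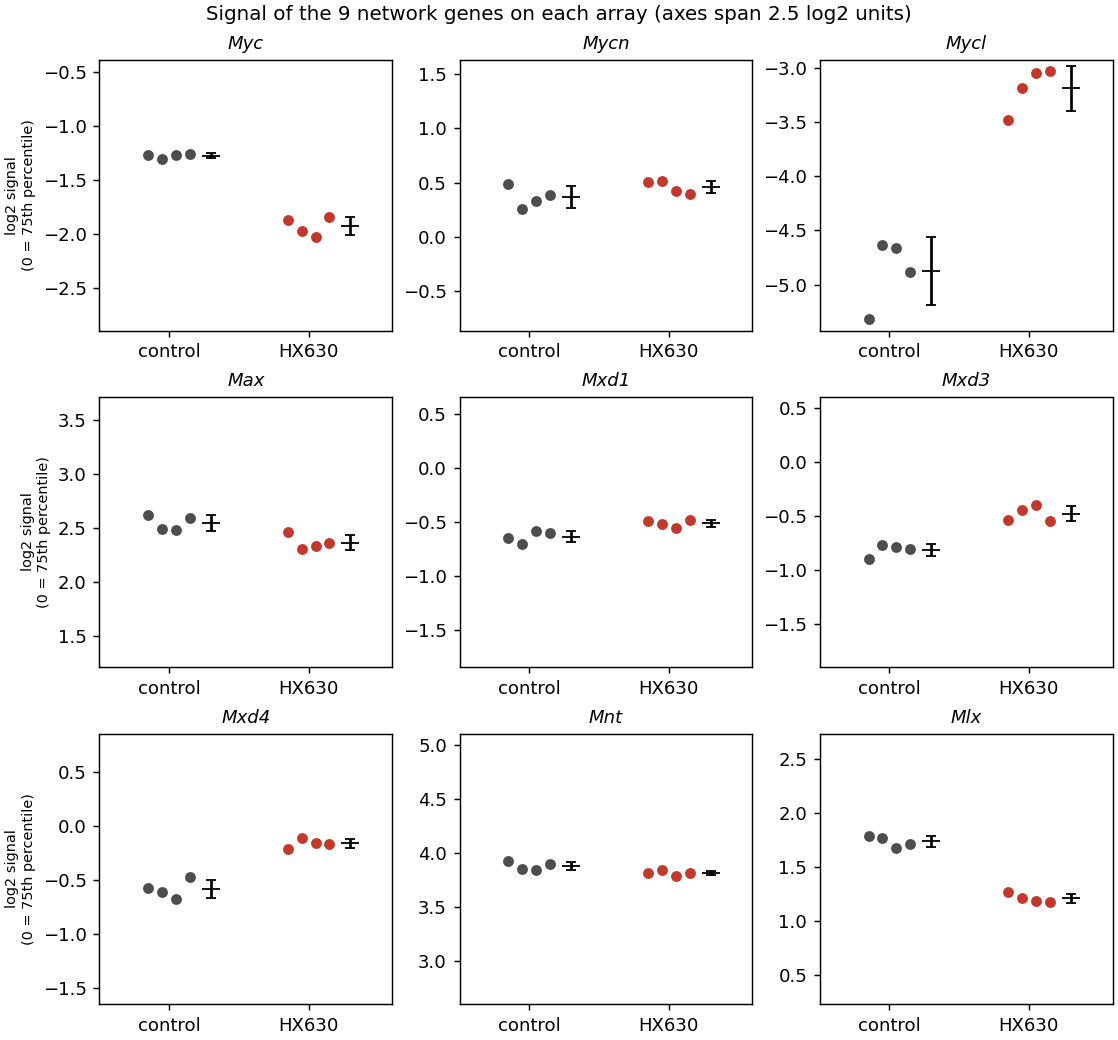
Log2 signal of the 9 network genes (vertical axis, 0 = 75th percentile of the array; every panel spans the same range) on the 4 control arrays (grey) and the 4 HX630 arrays (red), with the mean and SD of each group as black bars. The groups stand clear of each other for Myc, Mycl, Mxd3, Mxd4 and Mlx, and they overlap for Mycn and Mnt.

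Among the activators, Myc, the founding member of the family and a driver of growth and proliferation, was lower on every HX630 array. Its signal was -1.27, -1.30, -1.27 and -1.25 on the control arrays 1 to 4, and -1.87, -1.97, -2.03 and -1.84 on the HX630 arrays 1 to 4. The control arrays had an SD of 0.02, and the closest values of the 2 groups were 0.54 apart. Myc fell by 0.65 (SE 0.047, 95% interval -0.76 to -0.54, n = 4 per group) to 63.6% of the control, with a limma adjusted p of 1.27e-05. Of all tested probes, 18.5% had a larger difference. The fold change of 1.57 stood just past the threshold of 1.5, and it was under it with scaling to the median (-0.56), to the spike-in control probes (-0.43) and with normexp background correction (-0.49), the adjusted p staying below 0.01 in each.

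Mycl, which encodes L-MYC, a form first known from lung tumors and found in few adult tissues, was higher on every HX630 array. Its signal was -5.32, -4.64, -4.66 and -4.88 on the control arrays and -3.48, -3.18, -3.05 and -3.03 on the HX630 arrays, a gap of 1.15 between the groups. Mycl rose by 1.69 (SE 0.17, 95% interval 1.29 to 2.09, n = 4 per group), a fold change of 3.22 with a limma adjusted p of 7.94e-05. Only 1.95% of all tested probes had a larger difference. The spots were dim, with processed intensities of 33.4 to 73.6 on the control arrays and 161 to 232 on the HX630 arrays. The median intensity of the same spots, before background subtraction, was 78 to 118 and 199 to 253, where the local background was 21 to 24. With normexp background correction, which keeps more of the background in dim spots, the rise of Mycl was 0.99, with an adjusted p of 0.00179, and was still called.

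Mycn, the activator of nervous system development and of neuroblastoma, did not pass the test. Its signal was 0.25 to 0.49 on the control arrays (mean 0.36) and 0.40 to 0.51 on the HX630 arrays (mean 0.46), and the groups overlapped. The difference was 0.09 (SE 0.058, 95% interval -0.04 to 0.23), with a limma adjusted p of 0.198. With scaling to the median it was 0.18 (adjusted p of 0.00753) and with scaling to the spike-in control probes 0.32 (adjusted p of 0.00221), past 0.01 in both but under the fold threshold. The interval does not reach the fall of Myc or the rise of Mycl. The 3 activators therefore had differences of -0.65, 0.09 and 1.69, and the adjusted p of each was taken over all probes.

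Max, the partner that both the activators and the antagonists need in order to bind DNA, did not pass the test either. Its signal was 2.62, 2.50, 2.48 and 2.59 on the control arrays and 2.46, 2.30, 2.33 and 2.36 on the HX630 arrays. The groups missed each other by 0.018, less than the SD within either. The difference was -0.18 (SE 0.051, 95% interval -0.30 to -0.063) with a limma adjusted p of 0.0162, which did not pass 0.01. It passed at -0.18 with the replicate number as a block (adjusted p of 0.00627) or an intensity trend in the variance. It also passed at -0.21 with array weights (0.00391) and at -0.21 without HX630 array 1. The fall was smaller and did not pass with quantile normalization (-0.11, adjusted p of 0.0968), scaling to the median (-0.095, 0.121) and normexp correction (-0.065, 0.330). With scaling to the spike-in control probes the difference was 0.04 (adjusted p of 0.615).

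Of the 4 antagonists that recruit SIN3, Mxd3 and Mxd4 rose and Mxd1 and Mnt did not pass the test. Mxd4, an antagonist linked to cells that leave the cycle, had signals of -0.57, -0.61, -0.68 and -0.47 on the control arrays and -0.21, -0.11, -0.16 and -0.16 on the HX630 arrays. Every HX630 array lay above every control array. Mxd4 rose by 0.42 (SE 0.05, 95% interval 0.30 to 0.54), a fold change of 1.34 with a limma adjusted p of 0.0002. A dimmer probe of Mxd4 gave 0.45 (SE 0.047), so the 2 probes of this gene differed by less than their standard errors. With scaling to the spike-in control probes Mxd4 rose by 0.64 and passed the fold threshold.

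Mxd3, which is known from cells in S phase, had signals of -0.90, -0.77, -0.79 and -0.81 on the control arrays and -0.53, -0.44, -0.40 and -0.55 on the HX630 arrays, and the groups were 0.22 apart. Mxd3 rose by 0.33 (SE 0.048, 95% interval 0.22 to 0.44), a fold change of 1.26 with a limma adjusted p of 0.000585. It was on the same side of the fold threshold in the scalings tried, with 0.55 at most.

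Mxd1, the antagonist first described in differentiating cells, was at -0.71 to -0.59 on the control arrays and -0.55 to -0.48 on the HX630 arrays. The groups were 0.034 apart, and the difference of 0.12 (SE 0.038, limma adjusted p of 0.0239) did not pass. It passed 0.01, under the fold threshold, at 0.35 with scaling to the spike-in control probes (adjusted p of 0.00198) and at 0.19 with normexp correction (0.00573). A dimmer probe of Mxd1 gave 0.16 with an adjusted p of 0.0365. Mnt, the most widely expressed antagonist, was at 3.84 to 3.92 on the control arrays and 3.79 to 3.84 on the HX630 arrays, and these ranges overlapped. Its difference of -0.06 (SE 0.033, 95% interval -0.14 to 0.014, limma adjusted p of 0.138) had the opposite sign, at 0.016, 0.024 and 0.16, with quantile normalization and with scaling to the median or to the spike-in control probes.

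Mlx, the partner of the Mondo factors, was lower on every HX630 array. Its signal was 1.79, 1.77, 1.68 and 1.72 on the control arrays and 1.27, 1.21, 1.18 and 1.18 on the HX630 arrays. The SD was 0.051 and 0.041 in the 2 groups, and the groups were 0.41 apart. Mlx fell by 0.53 (SE 0.04, 95% interval -0.62 to -0.44) to 69.4% of the control, with a limma adjusted p of 1.54e-05. Its fold change of 1.44 was under the threshold for a call in the scalings tried.

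**Figure D2:**
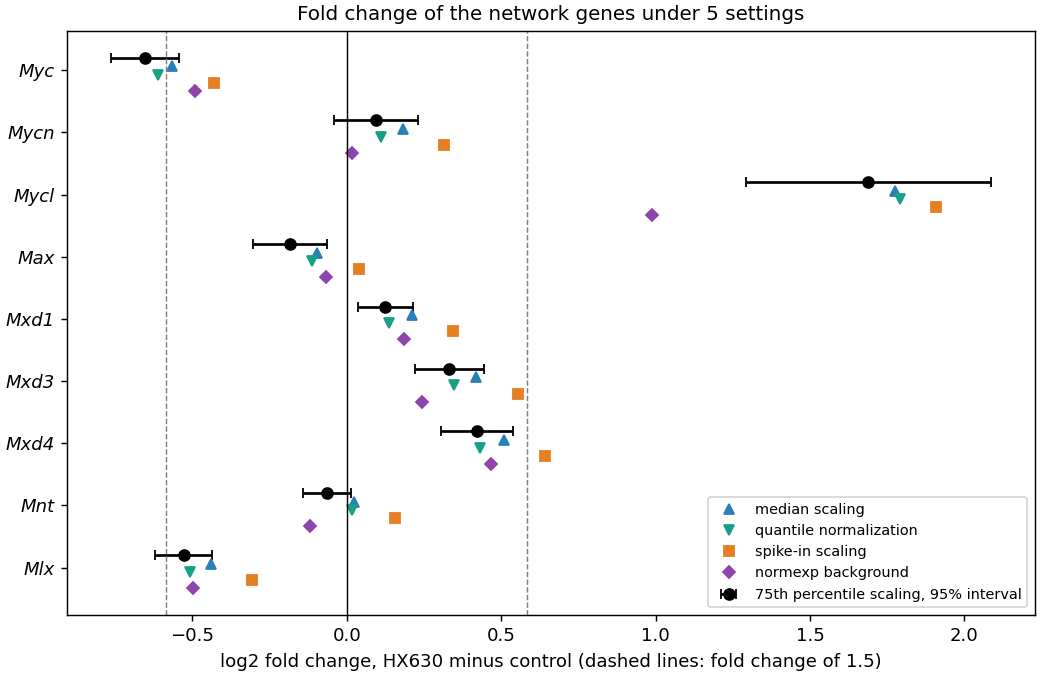
Difference in log2 signal between HX630 and control (horizontal axis) for each network gene under 5 settings, with the 95% interval of limma for scaling to the 75th percentile (black) and dashed lines at a fold change of 1.5. Mycl lies beyond the right line and Mlx between zero and the left line in each setting, whereas Myc crosses the left line at -0.65 with the 75th percentile and lies inside it at -0.43 with spike-in scaling.

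How an array is scaled drops out when 2 probes of the same array are compared, so each gene was also set against Max on its own array. The difference in log2 signal from Max was computed per array, and the HX630 arrays were compared with the control arrays by a two-sided exact permutation test, with adjustment over the 8 differences. This compares changes and not levels, since probes differ in brightness for the same amount of RNA. Against Max, Myc fell by 0.47 and Mlx by 0.34. Mycl rose by 1.87, Mxd4 by 0.60, Mxd3 by 0.51, Mxd1 by 0.31 and Mycn by 0.28. In each of these 7 genes the groups did not overlap, and the exact p was 0.0286 (adjusted 0.0327), the smallest this design allows. The share of all genes that stand apart in this way against Max was not computed. By their signal alone, 61.5% of all genes had groups that did not overlap, so this count is not a result particular to the network. For Mnt the change was 0.12 with overlapping groups and an exact p of 0.0857. The rise of Mycn against Max was 0.083 with overlapping groups after normexp correction, and a shift of Max itself enters all 8 differences.

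**Figure D3:**
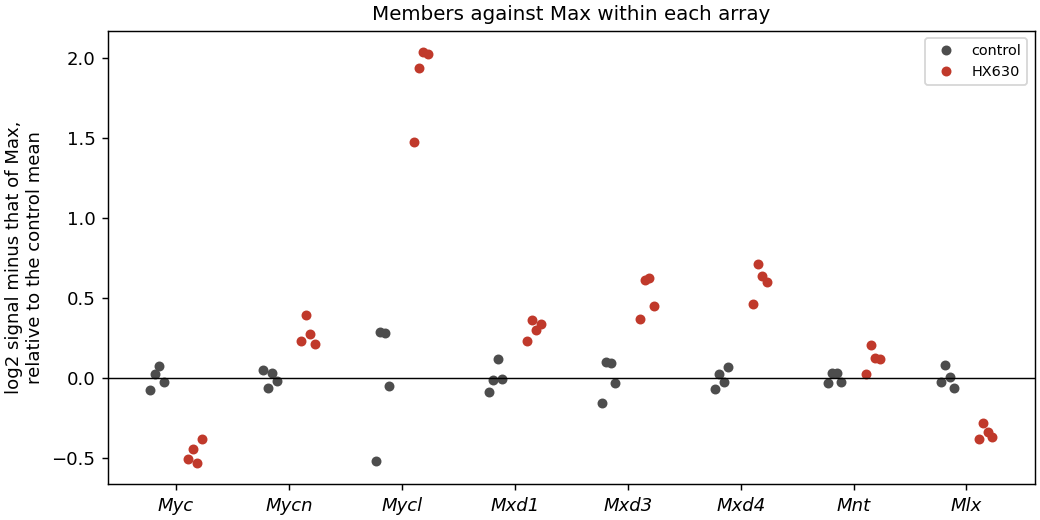
Log2 signal of each gene minus that of Max on the same array (vertical axis), set to 0 at the mean of the control arrays, with the 4 control arrays in grey and the 4 HX630 arrays in red. Myc and Mlx lie below all their control arrays, Mycl, Mxd1, Mxd3, Mxd4 and Mycn above them, and Mnt overlaps.

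Of 4 further genes of the network outside the 9, Mlxipl was called and Mxi1 was well above background on no array. Mlxipl, which encodes ChREBP, the carbohydrate-responsive partner of MLX, fell from a mean of 2.68 to 2.07, a difference of -0.61 (SE 0.046, limma adjusted p of 1.66e-05). Its fold change was at the threshold, and it was under it with quantile normalization (-0.54), scaling to the median (-0.52) or to the spike-in control probes (-0.39) and with normexp correction (-0.58). Mlxip, which encodes MondoA, rose by 0.32 (SE 0.059, adjusted p of 0.00231) by its brighter probe, while its other probe gave -0.06 with an adjusted p of 0.346, so its direction depends on the probe. Mga, a repressor that pairs with MAX, fell by 0.40 (SE 0.061, adjusted p of 0.000803), and the difference was -0.18 with an adjusted p of 0.0391 with scaling to the spike-in control probes.

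Cofactors were mostly within the fold threshold. The lists of cofactors and targets were chosen with earlier results of these data known, which limits their comparison with all genes. Of 16 tested genes that act in the turnover of MYC or as its coactivators, none was called, 6 were higher and 1 was lower at an adjusted p below 0.01, against 24% and 27.2% of all genes, and the median difference was 0.08. This median was 0.04 without HX630 array 3, and 0.30 with 3 genes called higher with scaling to the spike-in control probes. Of the 17 genes of the SIN3 corepressor list, 8 were higher and 2 lower at this p, and the median was 0.13, or 0.35 with spike-in scaling. The median of all genes was -0.03.

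Genes of ribosome biogenesis that MYC is known to induce were mostly lower. On a list of 30 such genes, 29 had a lower mean signal with HX630, 26 of them at an adjusted p below 0.01, and none was higher at that p. Of all genes tested, 27.2% were lower and 24% higher at that p. Of the 30 genes, 7 were called lower, which is 23.3% of the list against 11.2% of all genes. The median difference was -0.31 against -0.03. Ddx21, an RNA helicase of the nucleolus, fell by 0.98 (adjusted p of 4.77e-07). Gnl3, which encodes nucleostemin, fell by 0.92, and Wdr43, a factor of the small ribosomal subunit, fell by 0.86. Dimmer probes of Ddx21 and Wdr43 gave smaller differences of -0.28 and -0.45. With scaling to the spike-in control probes, 3 of the 30 genes were called lower and the median was -0.08, while the median of all genes moved up by 0.22.

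On a list of 36 tested genes of metabolism and growth that MYC is known to induce, 27 had a lower signal. At an adjusted p below 0.01, 19 were lower and 6 higher, where 27.2% of all genes were lower and 24% higher. Of the 36, 8 (22.2%) were called lower against 11.2% of all genes, and none was called higher against 8.38%. The median was -0.22. With quantile normalization, scaling to the median or scaling to the spike-in control probes 3 genes were called higher, with normexp 2, and without control array 1, control array 2 or HX630 array 4 the count was 2, 1 and 1. Hk2, the hexokinase of many tumor cells, fell by 3.18 to 11% of the control (adjusted p of 8.92e-08). Ldha, lactate dehydrogenase A, fell by 0.97, and by 1.69 and 1.57 in its dimmer probes. Odc1, the first enzyme of polyamine synthesis, fell by 0.95. Hk2 and Ldha are also known targets of the hypoxia response, which these lists do not separate from MYC. With scaling to the spike-in control probes 4 genes of the list were called lower, with a median of 0.00 to 2 decimals.

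Genes that MYC is known to repress moved both ways. Of 15 genes, 12 were tested, 3 were called higher and 3 lower, which is 25% each way against 8.38% and 11.2% of all genes, and the median was -0.23. The median was -0.06 with quantile normalization, -0.14 with scaling to the median, -0.01 with spike-in scaling, and -0.15 and -0.13 without control array 1 or HX630 array 4. Those called higher were Cebpa, a factor of differentiation, with 1.19 (adjusted p of 8.39e-06), Gadd45a, a gene of the DNA damage response, with 0.91, and Cdkn2b, which encodes the inhibitor p15, with 0.66. Those called lower were Ndrg1 with -1.82 (adjusted p of 1.07e-06), Bcl2, an inhibitor of apoptosis, with -1.18, and Cdkn1a, which encodes the inhibitor p21, with -0.93. Ndrg1 is also known to be induced by hypoxia. A dimmer probe of Cdkn1a gave -1.78.

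The targets of MLX and the Mondo factors also moved both ways. Of 14 genes, 3 were called higher and 1 lower, which is 21.4% and 7.14% against 8.38% and 11.2% of all genes. At an adjusted p below 0.01, 5 were higher and 6 lower, where 24% of all genes were higher and 27.2% lower. The median of -0.13 turned to 0.09 with scaling to the spike-in control probes, and was -0.06 with quantile normalization, -0.04 with scaling to the median and -0.07 with normexp. Without control array 1 the median was -0.07 and 2 genes were called lower. Txnip, an inhibitor of glucose uptake and the best known target of MondoA, rose by 1.86 (adjusted p of 2.72e-07) by its brighter probe, and its other probe gave -0.15. Arrdc4, the arrestin related to Txnip, fell by 0.98, and its other probe gave -0.03. Scd1 and Elovl6, enzymes of fatty acid synthesis that ChREBP and other factors induce, rose by 1.06 and 0.87. The mean of all tested probes was 0.85 for Txnip, still called, and -0.51 for Arrdc4, which was then not called.

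**Figure D4:**
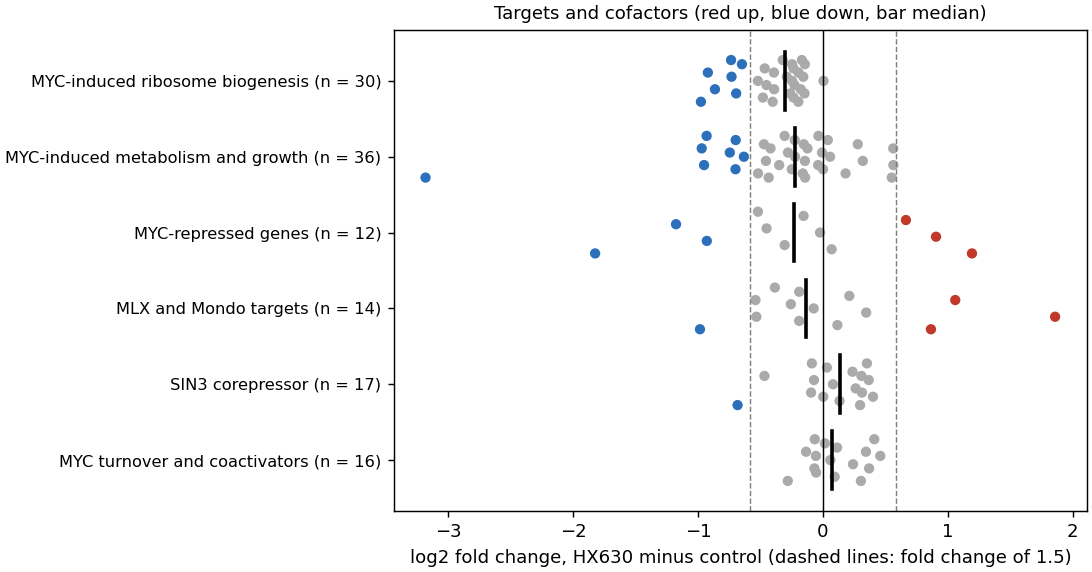
Difference in log2 signal between HX630 and control (horizontal axis) for each tested gene of 6 lists of cofactors and targets, with genes called up in red, called down in blue and not called in grey, a black bar at the median and dashed lines at a fold change of 1.5. The 30 genes of ribosome biogenesis lie nearly all left of zero with a median of -0.31, and the cofactor lists lie mostly within the lines.

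The genes whose signals followed the called members most closely over the 8 arrays were found by Pearson correlation among 15319 other genes. For Mycl these were Stk3, a kinase of the Hippo pathway, with r = 0.999 and Zfp362 with r = 0.998, and 1151 genes had r above 0.95. For Myc these were N4bp2l1 with r = 0.999 and Dusp16, a phosphatase of MAP kinases, with r = 0.998, and 2258 genes had r above 0.95. Stk3 rose by 0.98 and N4bp2l1 fell by 0.64, whereas Zfp362 and Dusp16 were not called. The arrays share the 2 group means, and any gene with a clear difference and little spread reaches a high r here.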

How the data were processed

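Per the labels and the study's methods, Cy3-labeled cRNA of 8 samples was hybridized to 1-colour Agilent whole mouse genome arrays. Each array's scan was read by the authors with Feature Extraction (version 10.7.3.1 per the submitters' processing notes), and in these deposited files the processed intensity of a spot is background-subtracted and spatially detrended. A deposited table of log2 values, exported by the authors from GeneSpring, matched the log2 processed intensity minus the 75th percentile of the array. The intensities in the scanner files carry no scaling between arrays.

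All calculations used limma 3.58.1 in R 4.3.3. There were 44397 spots per array. The 1377 control spots and the spots marked as outliers were left out, spots of a probe were averaged, and the 75th percentile of the array was subtracted on the log2 scale. Probes above background on at least 4 of 8 arrays were fitted with lmFit and eBayes over both groups, without a replicate block. Names came from RefSeq accessions in a table of mouse genes, which paired 26055 probes with 19751 symbols. The brightest tested probe stood for a gene. The array's design uses another build than that table, so gene coordinates are not given, and the promoter windows carry their own build.

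The members and lists were chosen with earlier results of these data known. Named were all members, the 4 further network genes, up to 3 called genes per direction of each list, and the 2 genes closest to each called member. Of the genes this rule names, 1 is not reported here. Same-numbered samples did not deviate together in every pair (correlations 0.52, -0.0093, 0.24 and 0.38), so the numbers were not taken as pairs. On simulated data of HX630 against control with 28543 probes, a change of 1 log2 unit was set in 200, and 74.5% were recovered with 0 false calls. In the measured data 18.6% of tested probes were called, a far larger share than was changed in the simulation. The share recovered therefore need not hold for the measured data. The slide, which cannot be told apart from the treatment, cannot be assessed this way. The 24 alternatives covered scaling, background correction, filters, outlier spots, variance model, the methods' t-test, the fold threshold, the probe of a gene, the replicate block, the deposited log2 table and each array left out. Normexp used the median spot intensity with an offset of 16.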

Additional observations from a re-analysis of the deposited data

Results flagged for a closer look

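In 2 of 64 groups of 4 arrays, over 32 named genes, 1 array stood apart from the other arrays of its group, where about 3.2 groups would do so by chance at 1 in 20. None was a group of a member. For Cebpa, HX630 array 2 was apart, with a gap of 0.8365 of the group's range, above the critical value of Dixon's test. For Bcl2, control array 2 was apart, with a gap of 0.831 of the range.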

How the results depend on the processing

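Of 24 alternatives, no member changed its call (with the fold threshold) or direction when any array was left out, when the deposited log2 table, the other filters, the kept outlier spots, the other variance models or the methods' t-test were used. The replicate block left Myc at -0.65 and Mycl at 1.69 and changed no call of a member at the fold threshold of 1.5. Without single arrays, Myc lay between -0.68 and -0.62 and Mycl between 1.54 and 1.79. With scaling to the median, Myc was -0.56, no member (0) was called lower, Mnt was 0.024, and the medians of the ribosome and metabolism lists were -0.22 and -0.14. With quantile normalization, Mnt was 0.016 and the metabolism median -0.14. Scaling to spike-in control probes moved the median of all genes up by 0.22. It gave 2 members called higher and 0 lower, Myc -0.43 (-0.62 relative to that median), Max 0.038, Mxd4 0.64, Mnt 0.16, 3 ribosome and 4 metabolism genes called lower with medians of -0.084 and -0.0032, and a median of 0.089 for the MLX and Mondo targets. With normexp, Myc was -0.49, 0 members were called lower, and against Max, Mycn changed by 0.083 and Mnt by -0.054. Without a fold threshold, 3 members were called higher and 2 lower, adding Mxd3 (0.33), Mxd4 (0.42) and Mlx (-0.53), with 26 ribosome and 19 metabolism genes lower. Against Max, the change of Mnt was 0.091 to 0.15 without single arrays, and its groups no longer overlapped without HX630 array 1 (0.15). Scaling to the median or to the spike-in probes shifts every gene of an array alike, and the cause of the other changes was not tested.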
